A study of Mus musculus with 16 samples.

Results

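The enzymes of O-GlcNAc cycling and the hexosamine pathway make or handle the sugar nucleotide UDP-GlcNAc and the single O-linked GlcNAc residue that is placed on proteins of the nucleus and cytoplasm, and the transcripts of their genes were measured in mouse cortex and cerebellum. The 7 genes were taken by name from the table of 37583 genes (*Ogt*, *Mgea5*, *Gfpt1*, *Gfpt2*, *Gnpnat1*, *Pgm3* and *Uap1*), each name fell on 1 row, and the rule uses no measured value, though the set was chosen with earlier results of these data known. The study sequenced polyA-selected RNA from bulk cortex and bulk cerebellum of C57BL/6J mice, with 1 library per region and mouse. Wild-type mice (4) and mice carrying the Slc39a8 A391T variant, which the labels also name A393T (4), gave 16 libraries in 4 groups. *Slc39a8* encodes a metal transporter of the cell surface. All 16 libraries came from mice of the same strain, the labels do not state whether the A391T mice carried 1 or both variant alleles, and the methods give male sex and an age of 12 weeks for the wild-type mice only. In bulk tissue, fewer cells of a type and less RNA per cell cannot be told apart, and this holds for each difference below.

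The hexosamine pathway is a side branch of glycolysis that builds UDP-GlcNAc, the donor sugar for N-glycans, O-glycans, glycosaminoglycans and intracellular O-GlcNAc. Its first and rate-limiting step moves an amino group from glutamine to fructose-6-phosphate and is run by the isozymes GFAT1 (*Gfpt1*) and GFAT2 (*Gfpt2*). *Gnpnat1* then acetylates glucosamine-6-phosphate, *Pgm3* moves the phosphate, and *Uap1* joins the product to UTP. In the brain, intracellular O-GlcNAc is abundant at synapses. O-GlcNAc transferase (*Ogt*) adds it and O-GlcNAcase (*Mgea5*, now named *Oga*) removes it, so that this modification turns over with 1 enzyme on each side.

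The libraries held 20813432 to 30497206 reads counted on genes, with a median of 24488842, and each of the 7 genes passed the filter on low counts in every comparison. The depth behind the genes differed, from 57 to 244 reads per library for *Gfpt2* and 90 to 176 for *Gnpnat1* to 7089 to 10193 for *Ogt*. Levels are given as TPM (a transcript abundance in which reads are taken per base of gene length and every library sums alike). Changes are log2 fold changes from edgeR's quasi-likelihood test on the counts, with a standard error (SE) and a p adjusted over all genes tested by the Benjamini-Hochberg method, and a change is called where the adjusted p is under 0.05. The test was scaled by TMM, which centres the bulk of genes. Scaling by library totals instead moved the median of all genes by 0.12 in wild-type mice, 0.13 in A391T mice and 0.12 over both genotypes, toward the cerebellum, and TPM carry that offset as well. Each tissue carried its defining markers. Projection neuron markers of the cortex were lower in cerebellum for 6 of 6 genes and cerebellar neuron markers higher for 9 of 9 entries. *Ttr* and 5 other choroid plexus markers were higher in cerebellum for 6 of 6 genes, but their summed level was 43.2 and 44.7 TPM in 1 A391T and 1 wild-type cerebellum library and 2391 to 8100 TPM in the other 6. Microglial markers were lower in cerebellum for 5 of 5 genes, at 55.6 to 80.6 against 239.7 to 288.0 summed TPM, and striatal markers in cortex ranged from 264.9 to 906.6. Of 6 astrocyte markers, 3 were higher in wild-type cerebellum, 1 was lower and 2 were not called, and their summed level was 1438 to 1742 TPM in cortex and 1462 to 1874 TPM in cerebellum. With only the 2 cerebellum libraries low in choroid plexus markers, *Gfpt2*, *Mgea5*, *Uap1*, *Gnpnat1* and *Pgm3* were called in the same direction as over both genotypes. The part of microglia, astrocytes and striatal tissue in the results was not tested. For 8 libraries (wild-type CTX447, CTX448, CBLM447 and CBLM448 and A391T CTX461, CTX462, CBLM461 and CBLM462, where CTX is cortex, CBLM is cerebellum and the number is the mouse), the deposited table of normalized values carries another mouse's name than the count file with the same values. The files do not show which names are right. Region is the same under both sets of names, so the fit of region over both genotypes rests least on them, and the genotype changes of the 7 genes that moved most are given under both.

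The 7 genes lie on 7 chromosomes in the NCBIM37 (mm9) annotation. *Ogt* (ENSMUSG00000034160) spans chrX:98835399-98879690 on the plus strand and *Mgea5* (ENSMUSG00000025220) spans chr19:45824751-45858236 on the minus strand. *Gfpt1* lies at chr6:86992840-87042191 (plus), *Gfpt2* at chr11:49607680-49652115 (plus), *Gnpnat1* at chr14:45996009-46008477 (minus), *Pgm3* at chr9:86446083-86465449 (minus) and *Uap1* at chr1:172072069-172105088 (minus). Reads were counted without regard to strand. *Pgm3* shares 31.4% of its exon bases with *Dopey1* on the opposite strand, and *Mgea5* shares 10.9% with *Gm15491*, and reads that fall on both genes of a pair cannot be told apart. HTSeq sets such reads aside as ambiguous, and ambiguous reads are not in the counts, while the length behind TPM is that of the whole gene. The *Gnpnat1* transcript aligned at 2 other places in the genome, the longer match with 2480 bases at 98.7% identity, and its counts are uncertain for that reason. *Gfpt2* has 1 weaker match (830 bases, 91.9% identity).

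The results compare within each library the pairs *Gfpt1* and *Gfpt2*, which run the same step, and *Ogt* and *Mgea5*, which run opposite steps, and the 250 bases before the start of these 4 genes are shown for that reason. RefSeq's promoter table (GRCm38.p6, a later build than the gene positions above) held windows for 6 of the 7 genes, *Mgea5* under the name *Oga*, and none for *Gnpnat1*. Capitals mark GC boxes (GGGCGG) and CCAAT boxes (CCAAT) on either strand, 5′ to 3′ along the gene. *Ogt* has 2 starts in the table, and the upstream one is shown.
Gfpt1, chr6:87042596-87042845, plus strand: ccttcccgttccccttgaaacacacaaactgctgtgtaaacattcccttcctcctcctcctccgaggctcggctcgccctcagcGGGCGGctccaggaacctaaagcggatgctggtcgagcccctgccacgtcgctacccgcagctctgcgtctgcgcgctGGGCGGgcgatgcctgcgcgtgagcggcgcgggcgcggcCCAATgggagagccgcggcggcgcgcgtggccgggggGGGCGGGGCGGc
Gfpt2, chr11:49793905-49794154, plus strand: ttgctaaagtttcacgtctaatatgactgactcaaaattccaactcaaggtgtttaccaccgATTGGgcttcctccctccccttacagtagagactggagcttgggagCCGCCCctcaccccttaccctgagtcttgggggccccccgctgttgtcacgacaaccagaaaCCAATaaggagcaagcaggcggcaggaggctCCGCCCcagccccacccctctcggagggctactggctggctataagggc
Ogt, chrX:101639801-101640050, plus strand: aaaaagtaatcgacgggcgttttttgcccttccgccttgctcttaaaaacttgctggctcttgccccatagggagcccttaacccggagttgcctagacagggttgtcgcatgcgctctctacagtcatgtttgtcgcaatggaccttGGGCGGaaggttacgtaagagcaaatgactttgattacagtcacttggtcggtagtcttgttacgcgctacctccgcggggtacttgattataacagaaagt
Mgea5, chr19:45783554-45783803, minus strand: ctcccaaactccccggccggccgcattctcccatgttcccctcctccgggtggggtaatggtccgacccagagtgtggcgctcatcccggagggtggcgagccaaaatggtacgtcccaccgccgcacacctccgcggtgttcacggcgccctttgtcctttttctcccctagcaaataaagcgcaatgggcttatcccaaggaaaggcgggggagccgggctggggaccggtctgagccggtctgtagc
The isozyme genes differed in base composition here. The *Gfpt1* window was 72.0% G or C with 32 CG dinucleotides, and the *Gfpt2* window 57.6% with 8, against medians of 52.4% and 6 over 32851 windows of the same length. *Gfpt1* held 4 GC boxes and 1 CCAAT box, *Gfpt2* held 2 of each, *Ogt* held 1 GC box in either window, and *Mgea5* held neither motif. A GC box was present in 32.7% of all windows and a CCAAT box in 33.8%. *Uap1* and *Pgm3*, not printed, held 5 GC boxes each. A TATA box (TATAAA) was found in none of the 7 windows and in 12.4% of all.

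Transcript levels spread widely over the pathway. *Ogt* and *Mgea5* were abundant, above 95.1% and 95.5% of the 27196 detected genes in cortex and 95.8% and 92.8% in cerebellum. The synthetic enzymes lay lower, from *Uap1* at the 85.1 percentile in cortex to *Gfpt2* at the 48.5 percentile in cerebellum. Ordered by mean TPM, cortex ran *Mgea5*, *Ogt*, *Uap1*, *Gfpt1*, *Pgm3*, *Gnpnat1*, *Gfpt2*, and cerebellum ran *Ogt*, *Mgea5*, *Gfpt1*, *Uap1*, *Pgm3*, *Gnpnat1*, *Gfpt2*. This order rests on the gene lengths of the deposited table. Divided by the length of the longest protein-coding transcript of each gene, a choice made after seeing the data, the counts put *Ogt* above *Mgea5* and *Uap1* above *Gfpt1* in both regions, and, by mean, *Gfpt2* above *Pgm3* (in 5 of 8 libraries) and *Gnpnat1* in cortex. *Gfpt2* was the lowest in cerebellum with either length. Of the 12 neighbouring pairs in TPM, 10 differed by a two-sided exact sign-flip test over 8 libraries (adjusted p 0.010 to 0.019, where 0.0078 is the smallest unadjusted p that 8 libraries can give). *Gnpnat1* and *Gfpt2* were not separated beyond their spread in cortex (1.05-fold, in this order in 4 of 8 libraries, adjusted p = 0.45 by the exact sign-flip test), nor were *Gfpt1* and *Uap1* in cerebellum (1.08-fold, 6 of 8 libraries, adjusted p = 0.060 by the same exact test).

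**Figure D1:**
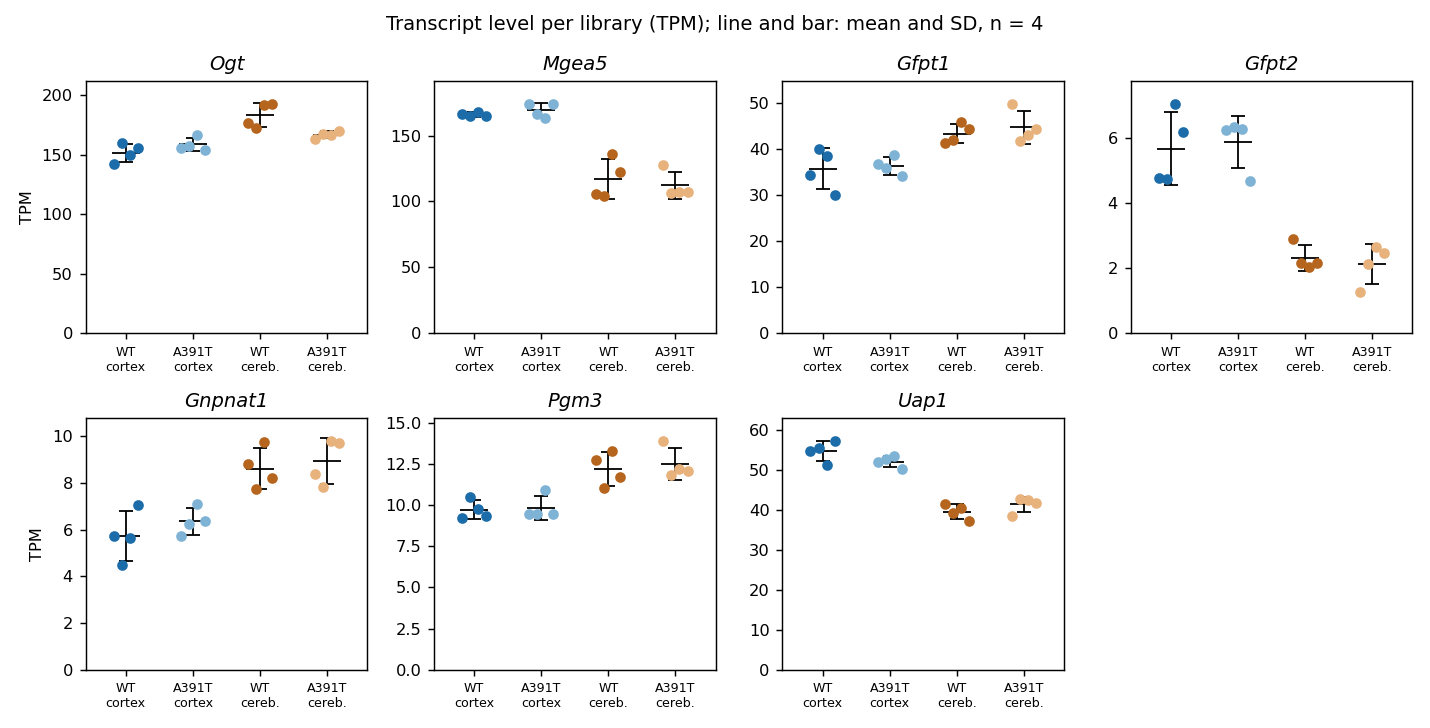
Level of each of the 7 genes in TPM (vertical axis, from 0) in each library of the 4 groups, with WT for wild type and cereb. for cerebellum. Points are libraries and black marks the mean ± SD of 4. The cortex and cerebellum points do not overlap for *Mgea5*, *Gfpt1*, *Gfpt2*, *Gnpnat1*, *Pgm3* or *Uap1*, while the *Ogt* points of the A391T regions overlap under the names of the count files. Over both genotypes 74.6% of all genes were called between regions, and the share of all genes without overlap in TPM was not computed.

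The comparison of cerebellum with cortex in wild-type mice asked which steps of the pathway differ between brain regions. *Gfpt2*, *Mgea5* and *Uap1* were lower in cerebellum, and *Gnpnat1* was higher. *Gfpt1*, *Pgm3* and *Ogt* did not pass the test. With 4 of 7 genes called, 1 higher and 3 lower, the share was not above that of all 16040 genes tested, of which 67.8% were called (34.7% higher, 33.1% lower). Only *Gfpt2* also reached a 2-fold change, a criterion met by 24.7% of all genes. In A391T mice the same 4 genes were called in the same directions, against 62.8% of all genes (31.6% higher, 31.3% lower, 24.7% with a 2-fold change), and again only *Gfpt2* reached 2-fold. Over both genotypes, 16 libraries called 6 of 7 (3 higher, 3 lower), against 74.6% of all genes (39.0% higher, 35.6% lower, 24.8% with a 2-fold change), and 1 of the 7, *Gfpt2*, reached 2-fold. The median change of the 7 genes was 0.12 in wild-type mice, −0.03 in A391T mice and 0.06 over both, beside 0.02, 0.03 and 0.04 for all genes. Scaling by library totals called 7 of 7 genes in wild-type mice (4 higher, 3 lower) and 6 of 7 in A391T mice (3 higher, 3 lower), while among all genes it moved the split to 42.3% higher and 27.5% lower in wild-type mice and to 40.7% higher and 26.1% lower in A391T mice. In wild-type mice the calls of *Ogt*, *Gfpt1* and *Pgm3* thus depend on the scaling, whereas the 3 decreases were called under it as well. Over both genotypes *Gfpt1* and *Pgm3* were called with TMM, RLE size factors and library totals, and *Ogt* only with library totals.

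**Figure D2:**
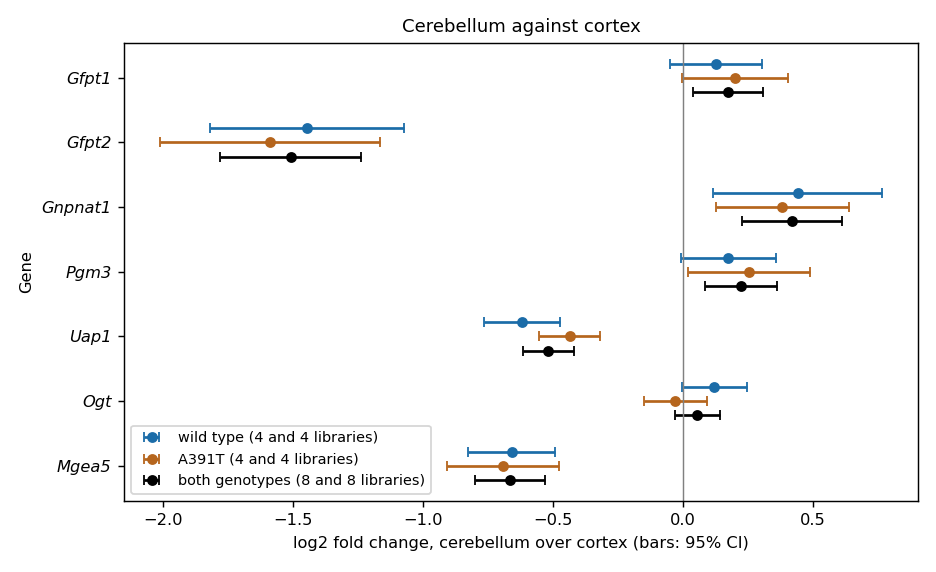
Log2 fold change of cerebellum over cortex (horizontal axis) for each of the 7 genes, in wild-type mice, in A391T mice and over both genotypes. Points are edgeR estimates and bars their 95% confidence intervals, scaled by TMM. *Gfpt2*, *Uap1* and *Mgea5* lie below 0 in all 3 fits and *Gnpnat1* above 0, while the *Ogt* intervals include 0.

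Of the 7 genes, *Gfpt2*, for the GFAT2 isozyme of the first step, had the largest log2 change between regions. It measured 4.75, 4.72, 7.03 and 6.16 TPM in the wild-type cortex libraries CTX447, CTX448, CTX479 and CTX480 and 2.88, 2.16, 2.01 and 2.14 TPM in the cerebellum of the same mice. In the A391T mice of CTX445, CTX446, CTX461 and CTX462 it measured 6.22, 6.34, 6.25 and 4.67 TPM in cortex and 1.26, 2.13, 2.64 and 2.45 TPM in cerebellum. Each cortex library was above each cerebellum library. The log2 change was −1.45 in wild-type mice (SE 0.17, adjusted p = 1.6e-05), −1.59 in A391T mice (adjusted p = 4.2e-05) and −1.51 over both (SE 0.13, adjusted p = 4.0e-09), or 2.84-fold lower. It was −1.52 (adjusted p = 1.0e-05) when only the 2 cerebellum libraries low in choroid plexus markers were kept.

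*Gfpt1*, the GFAT1 isozyme and the main form by level, moved little and the other way. It measured 34.3, 39.9, 38.5 and 29.98 TPM in wild-type cortex and 41.2, 41.9, 45.9 and 44.2 TPM in wild-type cerebellum, in the order of mice given above. The A391T libraries held 36.8, 35.8, 38.7 and 34.0 TPM in cortex and 49.7, 41.6, 43.1 and 44.2 TPM in cerebellum. The regions did not overlap in TPM, but after TMM scaling the log2 change was 0.13 in wild-type mice (SE 0.08, adjusted p = 0.18) and 0.20 in A391T mice (adjusted p = 0.078). Over both genotypes it was 0.17 (adjusted p = 0.019), a 1.13-fold increase that passed the test. This call was lost with only the 2 cerebellum libraries low in choroid plexus markers (0.17, adjusted p = 0.080) and with only the mice whose names match (0.27, adjusted p = 0.069).

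The balance between the isozymes followed. The ratio of *Gfpt1* to *Gfpt2* is taken within a library and does not depend on scaling between libraries. It was 4.87 to 8.46 in the 8 cortex libraries and 14.3 to 39.4 in the 8 cerebellum libraries, with geometric means of 6.29 and 20.4. The log2 difference was 1.70 (p = 1.6e-04 by a two-sided exact permutation test, which cannot go lower with 8 against 8). It was 1.58 in wild-type mice and 1.81 in A391T mice (p = 0.029 in each by the exact permutation test, the smallest possible with 4 against 4). The highest value, 39.4, belonged to the A391T library CBLM445, whose *Gfpt2* level was the lowest of all libraries. Without that library the log2 difference was 1.56. How many other gene pairs separate the regions as fully was not computed, for this ratio or for *Ogt* to *Mgea5* below.

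The following steps of UDP-GlcNAc synthesis did not move together. *Gnpnat1*, the acetyltransferase, measured 5.73, 4.47, 5.66 and 7.05 TPM in wild-type cortex and 8.81, 7.73, 9.74 and 8.20 TPM in wild-type cerebellum. In A391T mice it measured 5.72, 6.24, 7.12 and 6.39 TPM in cortex and 8.37, 7.82, 9.81 and 9.70 TPM in cerebellum, so that all cerebellum libraries were above all cortex libraries. The log2 change was 0.44 in wild-type mice (SE 0.15, adjusted p = 0.020), 0.38 in A391T mice (adjusted p = 0.014) and 0.42 over both (adjusted p = 4.2e-04), a 1.34-fold increase. The wild-type call was lost without the cortex library CTX448 (0.33, adjusted p = 0.057) or the cerebellum library CBLM479 (0.37, adjusted p = 0.070). With only the mice whose names match, 2 of each genotype, the change was 0.33 in wild-type mice (adjusted p = 0.24) and 0.38 in A391T mice (adjusted p = 0.17).

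*Pgm3*, the phosphomutase of the pathway, ranged from 9.23 to 10.9 TPM over the 8 cortex libraries and from 11.0 to 13.9 TPM over the 8 cerebellum libraries. Its log2 change was 0.17 in wild-type mice (SE 0.08, adjusted p = 0.082), 0.25 in A391T mice (adjusted p = 0.057) and 0.22 over both (adjusted p = 0.0052). The last step went the other way. *Uap1*, which forms UDP-GlcNAc itself, measured 54.9, 55.5, 51.3 and 57.4 TPM in wild-type cortex and 41.7, 39.3, 40.4 and 37.2 TPM in wild-type cerebellum. The A391T libraries held 52.0, 52.7, 53.5 and 50.4 TPM in cortex and 38.6, 42.7, 42.7 and 41.8 TPM in cerebellum, with no overlap between regions. The log2 change was −0.62 in wild-type mice (SE 0.07, adjusted p = 7.3e-06), −0.43 in A391T mice (adjusted p = 4.7e-05) and −0.52 over both (adjusted p = 7.6e-09), or 1.43-fold lower.

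The writer and the eraser of O-GlcNAc differed in how they varied between regions. *Ogt* measured 141.9, 159.5, 149.8 and 155.3 TPM in wild-type cortex and 176.9, 172.2, 191.8 and 192.5 TPM in wild-type cerebellum. In A391T mice it measured 155.9, 157.1, 166.7 and 154.2 TPM in cortex and 162.9, 167.6, 166.1 and 170.1 TPM in cerebellum. The wild-type regions did not overlap in TPM and the A391T regions did, but under the names in the normalized table the wild-type regions overlapped and the A391T regions did not. The log2 change was 0.12 in wild-type mice (SE 0.06, adjusted p = 0.080), −0.03 in A391T mice (adjusted p = 0.67) and 0.06 over both (adjusted p = 0.22, 95% confidence interval −0.03 to 0.14). Under the other names it was 0.05 in wild-type mice and 0.04 in A391T mice. Under library totals it was 0.24 in wild-type mice (adjusted p = 0.0037), 0.10 in A391T mice and 0.17 over both (adjusted p = 8.9e-04), so that no direction is given for *Ogt*.

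*Mgea5*, the eraser, was lower in cerebellum under each alternative. It measured 166.6, 164.6, 167.9 and 164.8 TPM in wild-type cortex, a narrow range, and 105.3, 103.8, 136.2 and 122.6 TPM in wild-type cerebellum. The A391T libraries held 173.7, 166.7, 163.5 and 174.1 TPM in cortex and 127.9, 106.3, 107.3 and 107.3 TPM in cerebellum. The log2 change was −0.66 in wild-type mice (SE 0.08, adjusted p = 1.5e-05), −0.69 in A391T mice (adjusted p = 1.4e-04) and −0.67 over both (adjusted p = 2.0e-08), or 1.59-fold lower.

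The ratio of *Ogt* to *Mgea5* within a library was 0.851 to 1.02 in the 8 cortex libraries and 1.27 to 1.68 in the 8 cerebellum libraries, with geometric means of 0.924 and 1.53. With the gene lengths of the deposited table *Mgea5* was the higher of the pair in 7 of 8 cortex libraries, but with the length of 1 transcript per gene *Ogt* was higher in 8 of 8, so no order is given for cortex. *Ogt* was the higher in 8 of 8 cerebellum libraries with either length. The difference of the ratio between regions does not depend on length. The log2 difference was 0.73 (p = 1.6e-04, two-sided exact permutation test), 0.79 in wild-type mice and 0.67 in A391T mice (p = 0.029 in each by the exact permutation test). Transcript ratios say nothing of enzyme amount or of O-GlcNAc on proteins, which were not measured in these libraries.

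**Figure D3:**
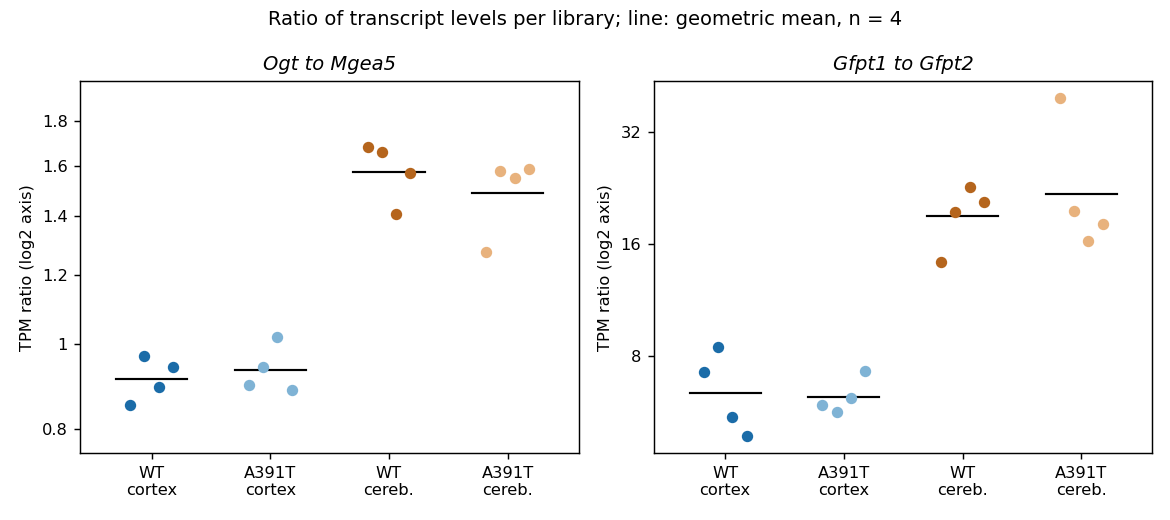
Ratio of TPM values within each library on a log2 vertical axis, for *Ogt* to *Mgea5* on the left and *Gfpt1* to *Gfpt2* on the right, in the 4 groups. Points are libraries and lines geometric means of 4. Both ratios are higher in all 8 cerebellum libraries than in all 8 cortex libraries, and the A391T library CBLM445 stands apart in both panels at 1.27 and 39.4. *Gfpt2* and *Mgea5* alone also differed without overlap, and how many other gene pairs separate the regions as fully was not computed.

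The comparison of A391T with wild-type mice asked whether the variant changed the pathway within a region. None of the 7 genes was called in cortex (lowest unadjusted p = 0.15 by edgeR), where 2 of 15815 genes, or 0.0126%, were called in all, and none in cerebellum (lowest adjusted p = 0.53 by edgeR), where 0% of 15668 genes were called. At an unadjusted p under 0.05, edgeR passed 0 of the 7 genes in cortex and 0 in cerebellum, and 748 and 1340 genes in all. DESeq2 called 0 of the 7 in either region and 14 and 29 genes in all. The estimates ran from −0.09 for *Uap1* to 0.14 for *Gnpnat1* in cortex, and from −0.08 for *Gfpt2* and *Ogt* to 0.12 for *Uap1* in cerebellum. The 95% confidence intervals bound what could have been missed. They were within −0.29 and 0.47 for all 7 genes in cortex and −0.55 and 0.39 in cerebellum under the names of the count files, with the widest for *Gfpt2*, the gene with the fewest reads, in cerebellum. Under the names in the normalized table, *Gnpnat1* in cortex went from 0.14 to −0.26 (adjusted p = 0.88) and *Gfpt2* from 0.03 to −0.14 (adjusted p = 0.89), and again 0 of 7 genes were called in either region. The *Gnpnat1* interval in cortex was then −0.55 to 0.04 and the *Gfpt2* interval in cerebellum −0.56 to 0.38. *Slc39a8* itself was low, at 1.63 to 3.16 TPM over the 16 libraries, and its log2 change was 0.17 in cortex (edgeR adjusted p = 1.0) and −0.03 in cerebellum (edgeR adjusted p = 0.93), or 0.47 and 0.27 under the names in the normalized table (edgeR adjusted p = 0.88 and 0.55). The variant is a point change, so the level does not check the genotype labels.

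**Figure D4:**
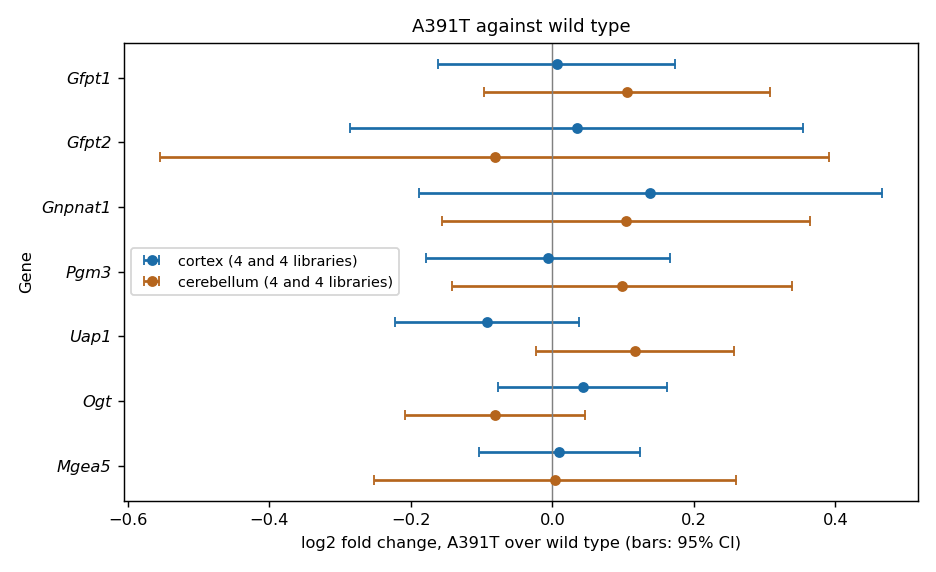
Log2 fold change of A391T over wild type (horizontal axis) for each of the 7 genes in cortex and in cerebellum. Points are edgeR estimates from 4 against 4 libraries and bars their 95% confidence intervals. All intervals include 0.

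Whether the regional difference itself depended on genotype was tested by an interaction term over the 16 libraries. None of the 7 genes and 0% of all 16589 genes were called by edgeR. At an unadjusted p under 0.05 edgeR passed 1 of the 7 genes and 805 genes in all, and DESeq2 called 0 of the 7 and 1 gene in all. The 1 gene was *Uap1*, whose regional decrease was smaller in A391T mice by 0.20 (adjusted p = 0.77 by edgeR). With each mouse as a replicate block the *Uap1* term was also 0.20 (edgeR adjusted p = 0.81), and under the names in the normalized table it was 0.04 (edgeR adjusted p = 0.86).

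Genes that feed, drain or use the pathway were read from 6 lists, and as with the 7 genes the lists were drawn up with earlier results of these data known. In wild-type mice 38 of 51 listed genes tested were called between regions, 20 higher and 18 lower in cerebellum, or 74.5% beside 67.8% of all genes. With library totals 23 were higher and 14 lower, or 72.5% beside 69.8% of all genes. All 6 lists were split in direction, and the counts of each stand beside 34.7% of all genes called as higher and 33.1% as lower. In the supply of glucose and fructose-6-phosphate, 3 of 9 genes rose and 4 fell. Hexokinase 2 (*Hk2*) rose from 3.41 ± 0.273 to 13.6 ± 1.07 TPM (SD, n = 4, log2 1.85) and *G6pdx*, the entry enzyme of the pentose phosphate pathway, by 1.16 on the log2 scale. The phosphofructokinase isoforms were split, with *Pfkm* at 0.44 and *Pfkl* and *Pfkp* at −0.85 and −0.60, and *Gpi1*, which makes the fructose-6-phosphate that GFAT uses, was at −0.28.

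Salvage and breakdown of GlcNAc gave 3 genes higher, 3 lower and 1 not called. *Nagk*, the GlcNAc kinase that returns free GlcNAc to the pathway, fell from 39.8 ± 4.44 to 18.1 ± 1.52 TPM (SD, n = 4, log2 −1.29). The GalNAc kinase *Galk2* was at −0.77. The glucosamine-6-phosphate deaminases, which run against the GFAT step, were split, with *Gnpda2* at 0.35 and *Gnpda1* at −0.30. *Renbp*, the renin-binding protein that also interconverts GlcNAc and N-acetylmannosamine, was at 0.89 and the deacetylase *Amdhd2* at 0.24.

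Of 12 genes for glutamine, acetyl-CoA and UTP, 4 rose, 4 fell and 4 were not called. The glutamine transporter *Slc38a1* rose from 88.4 ± 19.2 to 243.1 ± 17.0 TPM (SD, n = 4, log2 1.31). Glutamine synthetase (*Glul*) fell from 1872 ± 87.1 to 1149 ± 40.4 TPM (SD, n = 4, log2 −0.86). The pyrimidine synthesis genes *Cad* and *Dhodh* were at 0.33 and 0.30, the nucleoside diphosphate kinase *Nme1* at −1.13 and the mitochondrial acetyl-CoA synthetase *Acss1* at −0.49.

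Among 8 genes that use or carry UDP-GlcNAc, 5 rose and 1 fell, where 34.7% of all genes were higher and 33.1% lower. *Alg14* and *Alg13*, the subunits that add the second GlcNAc to the lipid-linked N-glycan precursor, were at 0.68 and 0.39. The Golgi UDP-GlcNAc transporter *Slc35a3* was at 0.55 and the transporter *Slc35b4* at −0.75. Of 9 genes for proteins that bind OGT, 3 rose and 4 fell. The DNA demethylation enzymes *Tet1* and *Tet3* were at 1.44 and 0.54 (*Tet3* at 0.999 with only the mice whose names match, and at 0.20 in A391T mice) and the corepressor *Sin3a* at 0.38, while *Ppp1r12a*, a myosin phosphatase subunit, and the mitochondrial transport adaptors *Trak2* and *Trak1* were at −0.72, −0.37 and −0.32. Of 6 unfolded protein response genes, 2 rose (*Ern1* 0.46, *Atf4* 0.30), 2 fell (*Atf6* −0.69, *Ddit3* −0.23) and 2 were not called. Scaling by library totals ended the calls of *Hk1* (−0.11, adjusted p = 0.22 by edgeR), *Gnpda1* (−0.18, adjusted p = 0.11 by edgeR), *Trak1* (−0.19, adjusted p = 0.061 by edgeR) and *Ddit3* (−0.11, adjusted p = 0.24 by edgeR). It added calls of *Xbp1* (0.28), *Umps* (0.21) and *Hcfc1* (0.30) as higher, and these and *Hk1* are named for that change, after their values were seen. In A391T mice 18 of the 51 genes were higher and 19 lower in cerebellum, or 72.5% beside 62.8% of all genes. There *Nme1* (−0.61), *Galk2* (−0.49) and *Ern1* (0.28) changed less than in wild-type mice, and *Gpi1* (−0.42), *Gnpda1* (−0.51) and *Atf4* (0.47) more. *Ddit3* (−0.09, adjusted p = 0.66), *Amdhd2* (0.22, adjusted p = 0.21) and *Dhodh* (0.44, adjusted p = 0.10) were not called by edgeR in A391T mice. Between genotypes edgeR called 0 of the 51 in cortex and 0 in cerebellum, where 5 and 2 had an unadjusted p under 0.05 and DESeq2 called 0 in either region. Under the names in the normalized table edgeR again called 0 in either region, with 2 and 4 at an unadjusted p under 0.05.

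**Figure D5:**
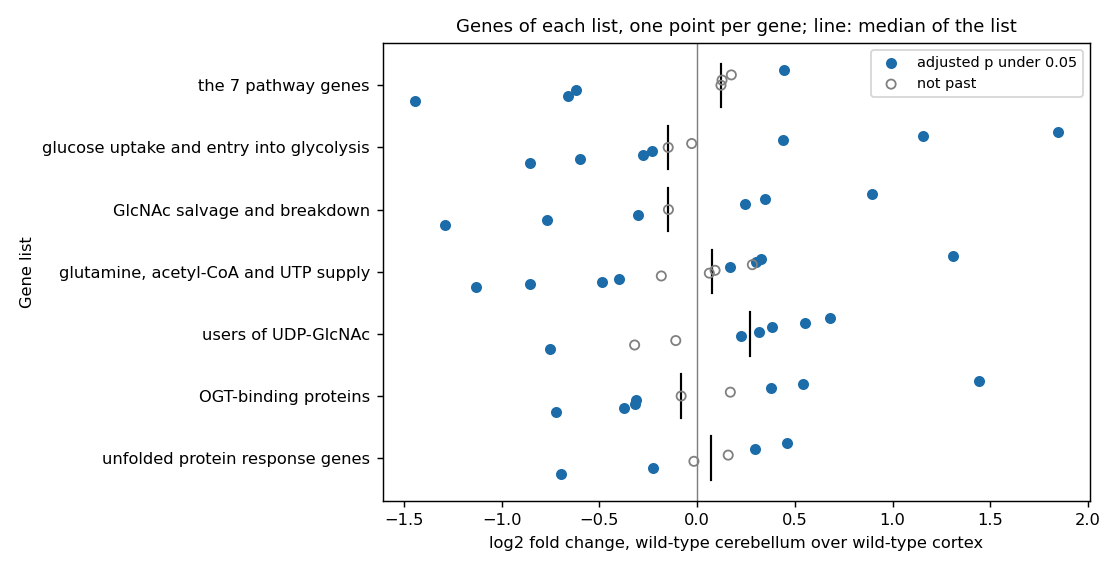
Log2 fold change of wild-type cerebellum over wild-type cortex (horizontal axis) for each gene of the 7 pathway genes and of 6 related lists (vertical axis), 1 point per gene. Filled points passed an adjusted p of 0.05 by edgeR, open points did not, and the black line is the list's median. Each list holds called genes on both sides of 0.

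Each of the 7 genes had close companions over the 16 libraries, given here as a description. The points share region, genotype and scaling, so that a gene that differs between regions correlates with many others. By Pearson correlation of log2 CPM (counts scaled to library size) among 16254 genes, *Mgea5* was most like *Pnmal1* (0.99), *Gfpt2* most like *Prkd1* (0.98), *Uap1* most like *Ube2e2* (0.99), *Gfpt1* most like *Hnrnpul2* (0.94), *Gnpnat1* most like *Cwf19l1* (0.93), *Pgm3* most like *Zfp248* (0.93) and *Ogt* most like *Rbm26* (0.84). Within the pathway, *Gfpt2* and *Uap1* (0.91) and *Mgea5* and *Uap1* (0.90) followed each other over the 16 libraries, as did *Gfpt1* and *Pgm3* (0.85). These stood at the 87.2, 86.9 and 99.6 percentile of the correlations of *Gfpt2*, *Mgea5* and *Gfpt1* with all genes compared. After the mean of each of the 4 groups was taken away, *Gfpt1* and *Pgm3* correlated at 0.74 and *Mgea5* and *Gfpt2* at −0.73. These values rest in large part on the A391T library CBLM445, and without it they were 0.45 and −0.48.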

How the data were processed

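RNA from frozen cortex and cerebellum was sequenced by the authors (directional polyA libraries). Per the labels and methods, reads were mapped to mm9 with STAR and counted per Ensembl gene with HTSeq, and the deposited counts, made without strand information, are 1 file per library. The authors also deposited RPKM values of the same counts. Only the gene names and lengths of that RPKM table were used, with its library names as an alternative. Reads on no gene (10.2 to 13.2% of each file's total), ambiguous reads (2.20 to 2.75%) and reads mapped to several places (8.41 to 12.1%) were left out, and 27196 genes had a count.

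The count tests used edgeR 4.0.16 under R 4.3.3 (filterByExpr, TMM, quasi-likelihood test, Benjamini-Hochberg adjustment over all genes tested), with DESeq2 1.42.0 as an alternative. The test was run on simulated counts with 200 changed genes and the same spread for every gene. It called 200 of 200, with 10 false calls for region in wild-type mice and 12 for genotype in cortex. Far fewer genes changed there than were called between regions, so this does not check the test in that setting. TPM were computed from counts and the table's lengths. Ratios and neighbouring levels were tested by exact permutation and sign-flip tests in scipy 1.17.1. Copies were sought by aligning 1 transcript per gene to NCBIM37. The labels give no further split of the 16 samples, and p-values measure the spread between mice of a group.

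The study's methods took both regions from each mouse, so mouse numbers pair the libraries and the fit with mouse as a replicate block was run. Deviations from the group means correlated weakly, from −0.11 to 0.14 within a mouse (8 pairs, median −0.06) and from −0.19 to 0.16 between mice (24 pairs). The 7 genes and the lists were chosen with earlier results of these data known. All 7 genes are named, with *Slc39a8*, up to 3 genes of each list in each direction with the largest called change in wild-type mice, and the gene most like each. *Eogt* of the UDP-GlcNAc users was not found by name in the table. Other alternatives were size factors, library totals, count filters, library names, the 4 mice with matching names, 1 model for all libraries, and each library left out. Keeping only 2 cerebellum libraries with a summed choroid plexus level under 100 TPM and the length of 1 transcript per gene were chosen after seeing the data. The text uses the counts with the names of the count files.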

Additional observations from a re-analysis of the deposited data

Results flagged for a closer look

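A library lay apart from the other 3 of its group in 6 of the 36 sets of 4 values looked at (7 genes and 2 ratios in 4 groups), by a gap to its nearest neighbour above Dixon's critical value of 0.829 of the range. Chance alone gives such a gap in about 1 set of 20. The sets are not independent, since the ratios are built from the same gene values, and 1 deviation can be counted in a gene and in its ratio. The A391T cerebellum library CBLM445 gave 3 of the 6. Its *Mgea5* level was high at 127.9 TPM (106.3 to 107.3 in the other 3), its ratio of *Ogt* to *Mgea5* was low at 1.27, and its ratio of *Gfpt1* to *Gfpt2* was high at 39.4. Without this library the log2 change of *Mgea5* in A391T mice was −0.80 in place of −0.69, and the ratio differences between regions were 0.77 for *Ogt* to *Mgea5* and 1.56 for *Gfpt1* to *Gfpt2*. CBLM445 had the lowest share of reads on no gene (10.2%) and of multiply mapped reads (8.41%), the highest share of ambiguous reads (2.75%) and the highest blood marker sum (593.5 TPM) of the 16 libraries, and leaving it out moved the calls over all genes in A391T mice from 10056 to 11797. The part of these in its values was not tested. *Gfpt2* was low in the A391T cortex library CTX462 at 4.67 TPM and high in the wild-type cerebellum library CBLM447 at 2.88 TPM. *Pgm3* was high in the A391T cortex library CTX461 at 10.9 TPM, a library whose striatal markers summed to 264.9 TPM against 665.4 to 906.6 in the other A391T cortex libraries. CTX461, CTX462 and CBLM447 are among the libraries with differing names in the deposited files.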

How the results depend on the processing

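The 9 main results (6 counts of called genes, 2 ratios and the order of levels) and the changes of the single genes and lists were recomputed under each alternative. Of 1086 values, 1003 stayed alike. For ratios and single-gene changes this means the same direction and side of the threshold. For counts it means only a count close to the main one, so that single genes could still cross the threshold. Neighbouring levels that differed went from 10 to 0 with wild-type mice only and to 0 with A391T mice only, since 4 libraries cannot give an exact sign-flip p below 0.125. Called genes in wild-type mice went from 4 to 7 with library totals, and asking also for a 2-fold change left 1 in wild-type mice, 1 in A391T mice and 1 of 6 over both genotypes. Leaving out 1 library at a time, the count was 3 to 5 in wild-type mice, 4 in A391T mice and 6 over both genotypes, beside 62.9 to 69.4%, 57.2 to 72.7% and 72.9 to 78.7% of all genes, and the ratio differences between regions were 0.71 to 0.77 (*Ogt* to *Mgea5*) and 1.56 to 1.77 (*Gfpt1* to *Gfpt2*). With mouse as a replicate block the called genes numbered 4 in wild-type mice, 4 in A391T mice, 6 over both genotypes and 0 for the interaction, beside 65.1%, 58.7%, 72.3% and 0% of all genes, and no call of the 7 genes changed. Within mice the ratio differences were 0.73 and 1.70 (p = 0.0078 each, exact sign-flip test).

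The 4 mice with matching names alone, 2 of each genotype, ended the calls of *Gnpnat1* in wild-type mice (0.33, edgeR adjusted p = 0.24) and A391T mice (0.38, edgeR adjusted p = 0.17) and of *Gfpt1* over both genotypes (0.27, edgeR adjusted p = 0.069), with fewer libraries in the fit. There the called genes of the lists fell to 5 of 12 for glutamine, acetyl-CoA and UTP, 3 of 8 for users of UDP-GlcNAc and 4 of 9 for OGT-binding proteins, or 47.1% of the 51 listed genes beside 47.5% of all genes. Of the other listed genes named, *Gpi1* (−0.24), *Amdhd2* (0.26), *Gnpda1* (−0.22), *Cad* (0.43), *Dhodh* (0.46), *Alg13* (0.39), *Trak1* (−0.18), *Trak2* (−0.29) and *Atf4* (0.22) also lost their wild-type calls there. With the table's names *Amdhd2* (0.11) and *Ddit3* (−0.13) lost theirs. *Gpi1* was at −0.15 with library totals. With 1 model of 16 libraries *Amdhd2*, *Dhodh* and *Ddit3* were not called, nor was *Amdhd2* without CTX479 or CBLM447 or *Cad* without CTX447 or CBLM479. *Gfpt1* and *Pgm3* in A391T mice were called with library totals (0.33 and 0.38) and with 1 model of 16 libraries (0.22 and 0.27). *Ogt* in wild-type mice was called without CTX480 (0.14) and *Pgm3* without CBLM448 (0.23). The causes were not tested.

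Signs turned only for changes that were not called. *Ogt* between regions in A391T mice became 0.10 with library totals, 0.044 with the table's names and 0.019 with matching mice. For genotype in cortex, the table's names gave −0.14 for *Gfpt2*, −0.0059 for *Mgea5*, 0.0076 for *Uap1*, −0.036 for *Ogt* and −0.26 for *Gnpnat1*, and matching mice gave −0.10 for *Gfpt2* and −0.12 for *Gnpnat1*. For genotype in cerebellum, *Mgea5* (0.0037) became −0.0015 with RLE size factors, −0.0093 with library totals, −0.0010 without a filter, −0.0054 with at least 10 counts, −0.0015 with DESeq2, −0.022 with the table's names, −0.016 with matching mice and −0.0023 with 1 model, and *Gnpnat1* became −0.13 and −0.025 with the table's names and matching mice. For the interaction, the table's names gave 0.042 for *Gfpt2*, −0.012 for *Gfpt1*, 0.0065 for *Ogt* and 0.12 for *Gnpnat1*, and matching mice 0.073 for *Gnpnat1*. Leaving out 1 library at a time, genotype changes in cortex were −0.0068 to 0.033 (*Mgea5*), −0.058 to 0.055 (*Gfpt1*), −0.055 to 0.14 (*Gfpt2*) and −0.052 to 0.025 (*Pgm3*). In cerebellum they were −0.11 to 0.068 (*Mgea5*), −0.21 to 0.077 (*Gfpt2*) and −0.0056 to 0.14 (*Pgm3*). The interaction was −0.13 to 0.058 (*Mgea5*), −0.0083 to 0.16 (*Gfpt1*), −0.24 to 0.038 (*Gfpt2*), −0.16 to 0.067 (*Gnpnat1*) and −0.0042 to 0.14 (*Pgm3*). Over all genes, edgeR called 2 between genotypes in cortex, 0 in cerebellum and 0 for the interaction, DESeq2 called 14, 29 and 1, and edgeR without a filter called 7 in cortex. Calls between regions in A391T mice fell from 10056 to 6617 with matching mice only. Depth limits *Gfpt2* and *Gnpnat1* most.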
